A study of Homo sapiens with 8 samples.

Results

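The genes NFE2L2, KEAP1, NQO1, HMOX1, GCLC, GCLM, TXNRD1, SRXN1 and PGD, 9 genes of the NRF2 antioxidant response and of the pentose phosphate pathway, were followed in SQ20B cells. They were chosen by name. Their transcripts were found through RefSeq identifiers, which paired 20 of the 24812 analysed transcripts with these 9 of 14524 named genes. SQ20B is an established human line of head and neck squamous cell carcinoma, and polyadenylated RNA was sequenced from 4 normoxia cultures and from 4 hypoxia cultures kept in 0.5% O2 for 16 h. The oxygen level of the normoxia cultures is not given in the labels. Both groups are the same unmodified line grown in the same high-glucose medium with serum, so the comparison has 1 line as its model. Each value is the authors' FPKM, 1 per condition over its 4 libraries. FPKM divides fragment counts by transcript length and by the number of mapped fragments, which makes levels comparable between genes of different length. The spread between libraries was not analysed here, so no difference below has an error or a test, and the depth of single libraries and the read counts behind each value were not analysed here.

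NRF2, the protein of NFE2L2, is a transcription factor that KEAP1 holds in the cytoplasm and hands to a CUL3 ubiquitin ligase for degradation. When electrophiles or oxidants modify cysteines of KEAP1, NRF2 accumulates, pairs with a small MAF protein and binds antioxidant response elements (AREs) in its target genes. Its targets make glutathione, reduce thioredoxin and quinones, break down heme and supply NADPH, the reductant on which these systems run. Control of NRF2 through KEAP1 acts on the protein, so mRNA levels do not measure NRF2 activity directly.

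Sequences of the promoters were taken from RefSeq (GRCh38.p14), which had an entry for 8 of the 9 genes and 11 promoters in all, each reaching from 250 bases before to 50 bases after a gene's start. The exception was HMOX1. They were searched on both strands for the ARE core TGACNNNGC. Its first 4 letters are also the start of AP-1 sites, so the letters do not name 1 factor. The core was found in 5 of the 11 promoters, those of GCLM, PGD and KEAP1 (1 of its 2) and both of TXNRD1, and in 13.3% of all 35116 promoters of the same length. The stretches below show the match in capitals. They are shown because matches to the same core stand before genes whose RNA was lower in hypoxia and before PGD, whose RNA was higher. The changes of KEAP1, TXNRD1 and PGD were within 1.5-fold and have no error. A match on the opposite strand is read in reverse, so that GCTTAGTCA stands for TGACTAAGC.
GCLM, chr1:93909446-93909474, minus strand: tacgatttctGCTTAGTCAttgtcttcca
KEAP1, chr19:10502784-10502812, minus strand: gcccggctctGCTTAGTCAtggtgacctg
TXNRD1, chr12:104215670-104215698, plus strand: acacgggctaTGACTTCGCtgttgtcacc
TXNRD1, chr12:104286920-104286948, plus strand: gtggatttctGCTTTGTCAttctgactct
PGD, chr1:10398853-10398881, plus strand: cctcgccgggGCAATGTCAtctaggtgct

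The GCLM match began 34 bases before the gene's start and the KEAP1 match 31 bases before the start of 1 of its 2 promoters. Both were the same 9 letters, TGACTAAGC. Which of the 2 KEAP1 promoters serves the transcript followed below was not tested. The matches shown for TXNRD1 began 99 and 102 bases before the starts of its 2 promoters, and that of PGD 201 bases before its start. KEAP1 and the first TXNRD1 promoter held another match each, TGACACGGC and TGACGGAGC. The promoters of NFE2L2, NQO1, GCLC and SRXN1 held none in this window, which says nothing of sites farther away. The cores of the hypoxia response element, ACGTG or GCGTG, were found in 9 of the 11 promoters and in all 8 genes with an entry, against 48.4% of all promoters. Neither motif was tied to a direction of change by any test.

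In hypoxia, RNA of GCLM, SRXN1 and NQO1 was more than 1.5-fold lower, and that of KEAP1, GCLC and TXNRD1 was lower by less. RNA of NFE2L2 itself was level, HMOX1 was higher, and PGD was higher by less than 1.5-fold. The changes ranged from 2.36-fold lower for GCLM to 1.55-fold higher for HMOX1. Changes are given as log2((hypoxia FPKM + 0.1)/(normoxia FPKM + 0.1)), where the added 0.1 lowers the change of low values. All 9 genes had at least 0.5 FPKM in each condition, the limit set on the mean over both for a gene to count as expressed. The limit of 1.5-fold was passed downward by 3 of the 9 genes (GCLM, SRXN1 and NQO1) and upward by 1, HMOX1. Among all 12103 expressed genes, 11.2% were at least 1.5-fold lower and 9.94% at least 1.5-fold higher. Of the 9 genes, 7 had a log2 change below 0, which held for 56.4% of all genes. Their median log2 change was -0.33, against -0.07 for all genes. Abundant genes were lower as a class, since the 1770 genes at a mean of 50 FPKM or more had a median log2 change of -0.27, and GCLM, NQO1, TXNRD1 and PGD belong to them. In RNA from whole cultures, less RNA per cell and fewer cells with the transcript cannot be told apart.

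**Figure D1:**
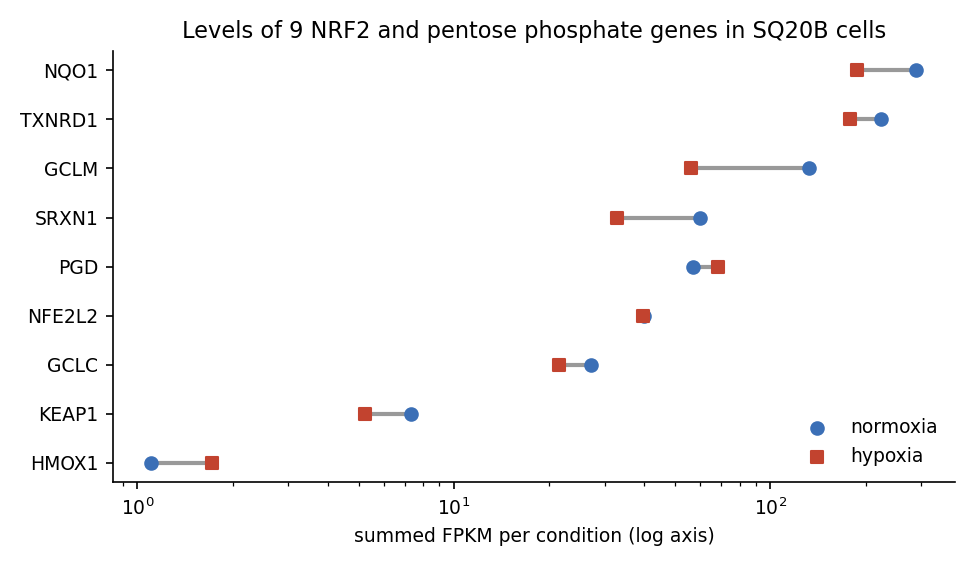
Summed FPKM of each of the 9 genes (log axis) in normoxia (blue circles) and hypoxia (red squares), 1 value per condition and ordered by the normoxia value. Levels run from 1.11 FPKM for HMOX1 to 289 for NQO1 in normoxia; the red square lies to the left of the blue circle for the genes that were lower in hypoxia and to the right for HMOX1 and PGD, while the NFE2L2 points coincide.

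The scale of the columns bears on the small changes. The FPKM values of all transcripts added up to 536005 in normoxia and 458431 in hypoxia. Scaling both columns to equal sums raised the median log2 change of all genes by 0.22. GCLM was then at -1.01 and SRXN1 at -0.64, still past 1.5-fold, while NQO1 was at -0.40 and no longer past it. NFE2L2 was then at 0.22, GCLC at -0.11, TXNRD1 at -0.10, KEAP1 at -0.26, PGD at 0.49 and HMOX1 at 0.80. Under this scaling 4.99% of all genes were at least 1.5-fold lower and 18.6% at least 1.5-fold higher.

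NFE2L2 encodes NRF2, and lies on chromosome 2 of hg19 (178095031 to 178129859). It had 39.8 FPKM in normoxia and 39.7 in hypoxia (log2 change -0.003). Of its transcripts, NM_001145412 carried the larger share, with 30.6 FPKM in normoxia and 31.7 in hypoxia. NM_006164, which encodes the full-length protein, had 9.25 and 8.003 FPKM. The summed level was thus the same in both conditions, and the share of NM_001145412 was 76.8% in normoxia and 79.9% in hypoxia. The protein of NM_001145412 begins at a later methionine and has a shorter N-terminus. These transcripts share nearly all their length, so each value depends on how Cufflinks divided the shared fragments.

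KEAP1, the substrate adaptor that presents NRF2 to the ligase, lies on chromosome 19 (10596796 to 10614054) and was followed through NM_012289. It had 7.32 FPKM in normoxia and 5.23 in hypoxia, 1.40-fold less, a log2 change of -0.48 that 16.8% of all genes reached or went below. The ratio of NFE2L2 to KEAP1 FPKM was 5.44 in normoxia and 7.60 in hypoxia.

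GCLM and GCLC encode the modifier and the catalytic subunit of glutamate-cysteine ligase, the rate-limiting enzyme of glutathione synthesis. GCLM lies on chromosome 1 (94352590 to 94375012), and its NM_002061 had 132 FPKM in normoxia and 56.1 in hypoxia. This was the largest change of the 9 genes, 2.36-fold less and -1.24 on the log2 scale, and only 143 of the 12103 genes, GCLM included, had a change as low or lower. GCLC lies on chromosome 6 (53362140 to 53409927) and had 27.1 FPKM in normoxia and 21.5 in hypoxia (log2 change -0.33), a change within 1.5-fold. Nearly all of it was NM_001498, which made up 99.5% of the GCLC level in normoxia and 99.7% in hypoxia. NM_001197115 of GCLC lay at 0.128 and 0.0617 FPKM, below the limit. The subunits therefore changed by unequal amounts: the ratio of GCLM to GCLC FPKM was 4.89 in normoxia and 2.61 in hypoxia.

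SRXN1 encodes sulfiredoxin, which restores overoxidized peroxiredoxins, and lies on chromosome 20 (627268 to 634014). Its NM_080725 had 60.0 FPKM in normoxia and 32.8 in hypoxia, 1.83-fold less (log2 change -0.87), and 479 genes were at or below this change. TXNRD1 encodes the cytosolic thioredoxin reductase, a selenoprotein that uses NADPH to reduce thioredoxin. It lies on chromosome 12 (104609557 to 104744085) and had 224 FPKM in normoxia and 179 in hypoxia, 1.251-fold less (log2 change -0.32). So SRXN1 passed 1.5-fold and TXNRD1 did not, while the loss in FPKM was larger for TXNRD1, 44.8 against 27.2.

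All 7 listed transcripts of TXNRD1 were lower in hypoxia, by different amounts. NM_001093771 had 111 FPKM in normoxia and 91.6 in hypoxia (log2 change -0.27). NM_182729 had 77.3 and 54.9 FPKM, a log2 change of -0.49. NM_182743 had 27.8 and 26.2 FPKM, a log2 change of -0.08. The share of NM_182729 in the gene's level was 34.6% in normoxia and 30.7% in hypoxia, the widest shift of any TXNRD1 transcript. Of the other 4 transcripts, NM_001261446 had the lowest change, -0.98, at 1.05 FPKM in normoxia and 0.482 in hypoxia. NM_001261445 had a mean below 0.5 FPKM, and NM_003330 and NM_182742 lay between 2.44 and 3.15 FPKM in both conditions. The gene EID3 lies inside the TXNRD1 span, and its values are not part of these sums.

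NQO1 encodes NAD(P)H quinone dehydrogenase 1, which reduces quinones by a 2-electron step and is a standard readout of NRF2. It lies on chromosome 16 (69743304 to 69760571) and was the most abundant of the 9 genes in both conditions. Its level was 289 FPKM in normoxia and 188 in hypoxia, 1.54-fold less, a log2 change of -0.62 just past 1.5-fold. The main transcript, NM_000903, had 253 FPKM in normoxia and 166 in hypoxia. NM_001025434 had 24.6 and 14.9 FPKM, and NM_001025433 had 10.3 and 6.13. All 4 NQO1 transcripts were more than 1.5-fold lower, with log2 changes from -0.60 for NM_000903 to -1.20 for NM_001286137, which had 1.81 and 0.729 FPKM. The share of NM_000903 was nearly constant, 87.3% in normoxia and 88.4% in hypoxia.

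**Figure D2:**
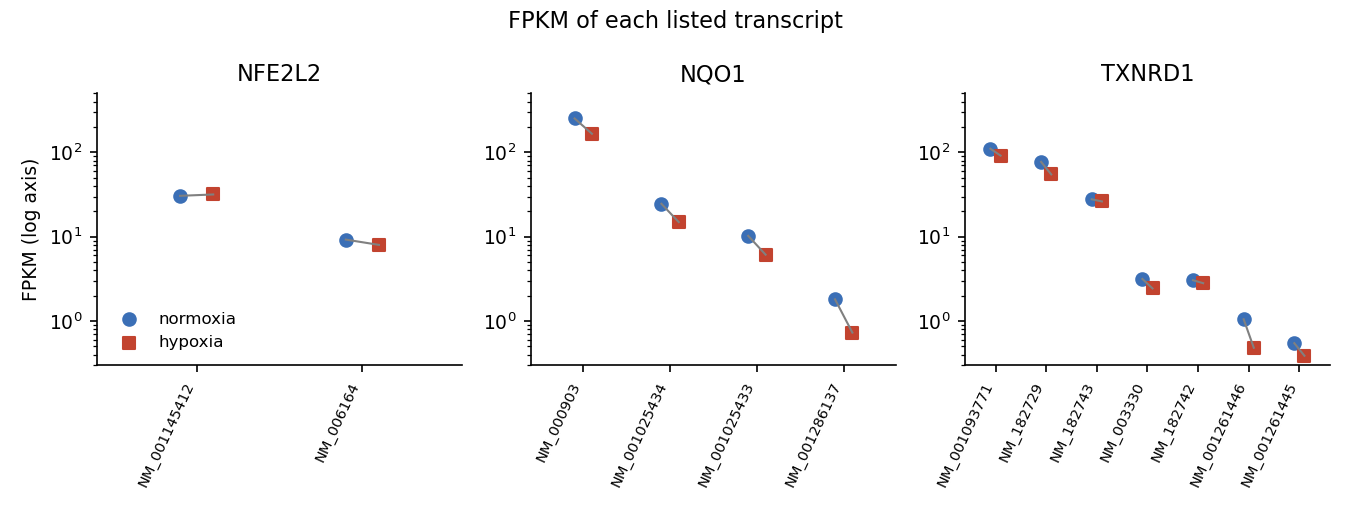
FPKM (log axis) of every listed transcript of NFE2L2, NQO1 and TXNRD1 in normoxia (blue circles) and hypoxia (red squares), 1 value per condition, joined by a line for each transcript. All 4 NQO1 and all 7 TXNRD1 transcripts slope downward, and NM_001145412 of NFE2L2 is the one transcript with a higher value in hypoxia.

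HMOX1 encodes heme oxygenase 1, which opens heme to biliverdin, iron and carbon monoxide; its gene is repressed by BACH1 and induced through NRF2. It lies on chromosome 22 (35777060 to 35790207). Its NM_002133 had 1.11 FPKM in normoxia and 1.72 in hypoxia, 1.55-fold more, a log2 change of 0.59 that stood at percentile 90.2 of all genes. This was the least abundant of the 9 genes, at percentile 14.1 of mean FPKM. With 1 in place of 0.1 added, its log2 change was 0.37 and no longer past 1.5-fold. PGD encodes 6-phosphogluconate dehydrogenase, the NADPH-forming step in the oxidative branch of the pentose phosphate pathway. It lies on chromosome 1 (10459085 to 10480201), and its NM_002631 had 56.8 FPKM in normoxia and 68.3 in hypoxia. That was 1.20-fold more, a log2 change of 0.26 at percentile 76.3 of all genes, so PGD was higher by less than 1.5-fold.

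Of the 20 transcripts, 18 passed the same limit of 0.5 FPKM. Of these, 7 were at least 1.5-fold lower and 1 was at least 1.5-fold higher, where 14.3% and 10.5% of all 18190 such transcripts were. A log2 change below 0 was found for 15 of the 18, against 57.4% of all transcripts. The 4 NQO1 transcripts made up 4 of the 7 lower ones, so these counts do not rest on separate genes. In order of level, NQO1 and TXNRD1 were highest in both conditions, and KEAP1 and HMOX1 lowest. Between them the order in normoxia was GCLM, SRXN1, PGD, NFE2L2, GCLC, and in hypoxia PGD, GCLM, NFE2L2, SRXN1, GCLC. The order of neighbours such as SRXN1 and PGD in normoxia has no spread to be judged by.

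**Figure D3:**
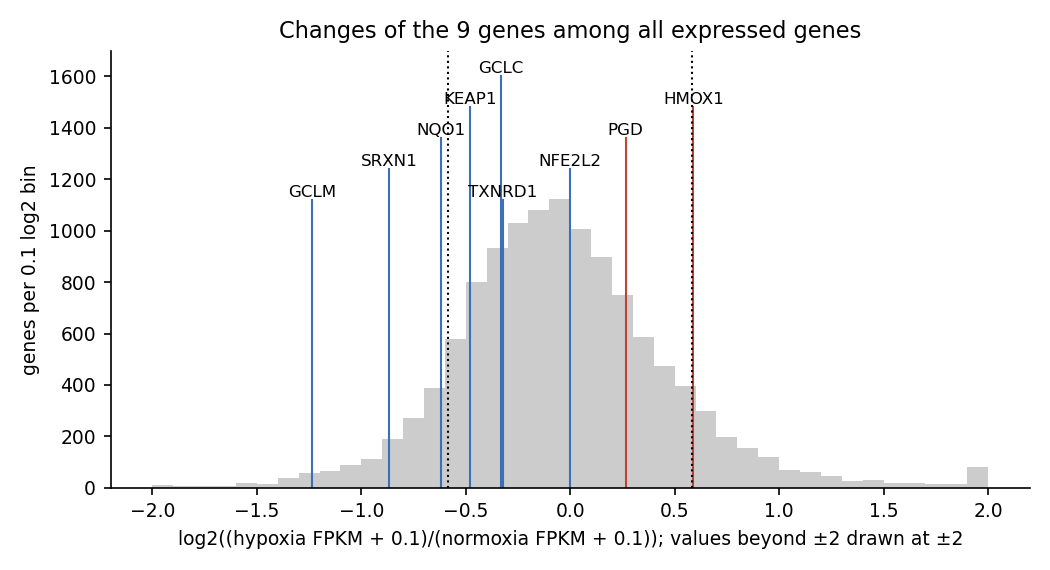
Histogram of log2 changes of the 12103 expressed genes (grey bars, genes per 0.1 log2 bin), with the 9 genes as vertical lines, blue below 0 and red above; line height carries no value, and dotted lines mark 1.5-fold. GCLM at -1.24 and SRXN1 at -0.87 lie in the lower tail, NFE2L2 near 0 and HMOX1 at 0.59 on the upper dotted line.

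The remaining genes of the pathway were taken from lists by function, 92 genes in all, of which 83 were expressed by the same limit, 3 lay below it and 6 were not analysed here. Of the 83, 14 were at least 1.5-fold lower (16.9%) and 6 at least 1.5-fold higher (7.23%), against 11.2% and 9.94% of all genes, and their median log2 change was -0.13, against -0.07. With the columns scaled to equal sums, AKR1B10, 1 of the 3 below the limit, also passed it, with a log2 change of -1.24. Counting it, 10 were lower and 12 higher, where 4.99% and 18.6% of all genes were. The counts of single lists that follow stand against these same shares of all genes.

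Among 12 regulators of NRF2, 2 were at least 1.5-fold lower, 1 was higher, and the median log2 change was -0.05. CUL3, the scaffold of the ligase that KEAP1 serves, had 26.9 FPKM in normoxia and 13.4 in hypoxia, 2.015-fold less. BACH1, the repressor that competes with NRF2 for AREs, had 28.5 FPKM in normoxia and 54.1 in hypoxia, 1.90-fold more. Both directions held with equal sums, at -0.78 for CUL3 and 1.15 for BACH1. The ratio of BACH1 to NFE2L2 FPKM was 0.716 in normoxia and 1.36 in hypoxia, and that of CUL3 to KEAP1 was 3.68 and 2.56. The coding BACH1 transcripts NM_001186 (20.2 and 44.1 FPKM) and NM_206866 (2.21 and 4.79) were both higher, and the noncoding NR_027655 had 6.07 and 5.16. PGAM5, a mitochondrial phosphatase that binds KEAP1, had 32.1 and 15.8 FPKM (log2 change -1.02). RBX1, the RING subunit of the ligase and the most abundant gene of this list, had 97.2 and 87.8 FPKM. NFE2L1, named after its values were seen, lay just inside the limit, with 19.4 and 28.8 FPKM (log2 change 0.57). It passed 1.5-fold with equal sums (0.79), median centring (0.64) and quantile normalization (0.69).

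Of 14 expressed genes of glutathione synthesis and recycling, 7 were at least 1.5-fold lower and 2 higher, with a median log2 change of -0.57. With equal sums or quantile normalization, 3 were lower and 2 higher. SLC7A11, the cystine carrier that supplies cysteine for glutathione, had 18.8 FPKM in normoxia and 4.99 in hypoxia, 3.76-fold less and -1.89 on the log2 scale. GSR, the reductase that regenerates glutathione with NADPH, had 90.2 and 51.6 FPKM, 1.75-fold less. GLRX5, a mitochondrial glutaredoxin of iron-sulfur cluster assembly, had 141 and 76.1 FPKM (log2 change -0.89). CHAC1, which degrades glutathione, had 0.929 and 0.353 FPKM, a log2 change of -1.18, so the lower genes of this list included 1 that consumes glutathione. The other 3 lower genes were GLRX2, GLRX3 and GPX4, named after their values were seen, with log2 changes of -0.76, -0.62 and -0.72. GLRX3 was the most abundant of the list, at 239 and 156 FPKM. GLRX, the cytosolic glutaredoxin, had 4.86 FPKM in normoxia and 11.9 in hypoxia, 2.45-fold more. GPX3, a secreted glutathione peroxidase, had 0.581 and 1.32 FPKM. With equal sums, SLC7A11 was at -1.67, GSR at -0.58 and GLRX at 1.499. With 1 FPKM added, CHAC1 was at -0.51 and GPX3 at 0.55, both inside 1.5-fold.

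Of 14 expressed genes of glutathione conjugation and export, 1 was at least 1.5-fold lower and none higher, and the median log2 change was 0.04. With equal sums 3 of them were at least 1.5-fold higher. The lower one was ABCC2, an export pump of glutathione conjugates, with 12.5 FPKM in normoxia and 5.82 in hypoxia (log2 change -1.08). MGST1, a microsomal glutathione transferase and the most abundant of the list, had 249 and 221 FPKM. None of the 12 expressed thioredoxin and peroxiredoxin genes passed 1.5-fold, 10 had a log2 change below 0, and the median was -0.16. SESN1, a stress-induced sestrin named after its values were seen, lay just inside the limit, with 8.08 FPKM in normoxia and 12.0 in hypoxia (log2 change 0.57). It passed 1.5-fold with equal sums (0.79), median centring (0.64) and quantile normalization (0.60), and its main transcript alone was at -0.27. PRDX1, the most abundant of them, had 1472 FPKM in normoxia and 1202 in hypoxia. None of the 4 expressed superoxide and peroxide genes passed 1.5-fold either, among them SOD1, the cytosolic superoxide dismutase, at 366 and 323 FPKM. The thioredoxin and peroxiredoxin median was 0.06 with equal sums.

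Of 8 expressed genes in a list of other NRF2 targets, 3 were at least 1.5-fold lower and 2 higher, and the median log2 change was -0.31. TRIM16, a ubiquitin ligase, had 78.7 FPKM in normoxia and 36.1 in hypoxia, 2.18-fold less, and was the most abundant of the list by mean FPKM. ALDH3A1, an aldehyde dehydrogenase, had 1.01 and 0.425 FPKM, and AKR1C2 had 1.02 and 0.633. AKR1C3 had 2.51 and 4.79 FPKM, 1.91-fold more, and EPHX1, an epoxide hydrolase, had 1.94 and 3.17. With 1 FPKM added, ALDH3A1 (-0.50), AKR1C2 (-0.30) and EPHX1 (0.50) were inside 1.5-fold. TRIM16 (-1.10) and AKR1C3 (0.72) stayed past it. With its main transcript alone, AKR1C2 was also inside (-0.52). At a mean of at least 1 FPKM, the list's median was -0.15. The AKR1C genes are similar to each other in sequence, to different degrees, and TRIM16L is similar to part of TRIM16. Whether reads were divided between them was not tested. Of the 7 heme and iron genes, 1 was at least 1.5-fold lower and 1 higher, with a median log2 change of -0.18. HMOX2, the constitutive heme oxygenase, was 1.76-fold lower, with 34.0 FPKM in normoxia and 19.4 in hypoxia. Its level was thus 30.7 times that of HMOX1 in normoxia and 11.3 times in hypoxia. SLC40A1, the iron exporter, had 0.619 and 1.18 FPKM. With 1 FPKM added its log2 change was 0.43, inside 1.5-fold. FTH1, the ferritin heavy chain and the most abundant gene of the list by mean FPKM, had 924 and 1069.

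None of the 12 genes of the pentose phosphate pathway and of other NADPH sources passed 1.5-fold, 10 had a log2 change below 0, and the median was -0.14. The most abundant by mean FPKM over both conditions was IDH1, the cytosolic NADPH-forming isocitrate dehydrogenase, with 274 FPKM in normoxia and 263 in hypoxia. H6PD, PGLS, TKT and TALDO1 are named after their values were seen. H6PD, the hexose-6-phosphate dehydrogenase of the endoplasmic reticulum, had 2.40 and 3.58 FPKM, and its log2 change of 0.55 passed 1.5-fold with equal sums (0.77), with median centring (0.62) and with its main transcript alone (0.60). PGLS, the lactonase that acts before PGD in the oxidative branch, had 2.86 and 3.10 FPKM (log2 change 0.11). TKT and TALDO1 are 2 of the enzymes of the non-oxidative branch. TKT had 59.1 and 54.7 FPKM, a log2 change of -0.11 that was 0.11 with equal sums and 0.05 with quantile normalization. TALDO1 had 80.5 and 59.8 FPKM, a log2 change of -0.43. With equal sums the list's median was 0.09.

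**Figure D4:**
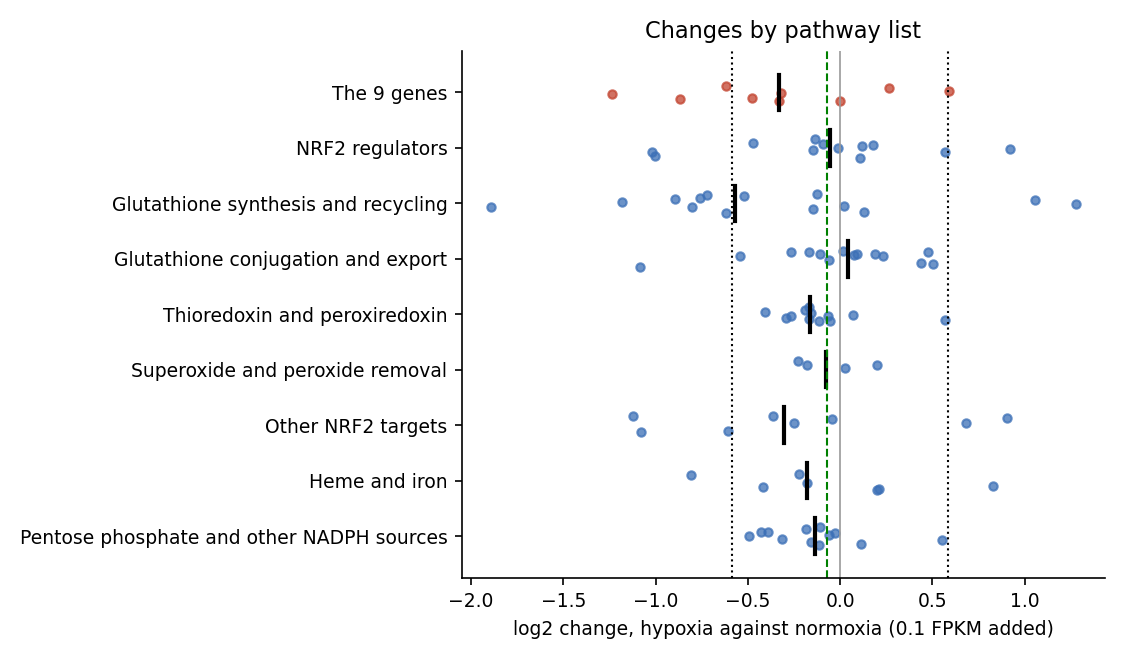
Log2 change in hypoxia against normoxia (0.1 FPKM added) of the 9 genes (red points) and of the expressed genes of 8 pathway lists (blue points), with list medians as black bars, the median of all genes (-0.07) as a dashed green line and 1.5-fold as dotted lines. The glutathione synthesis and recycling list has the lowest median, -0.57, and the widest range, from SLC7A11 at -1.89 to GLRX at 1.27, while thioredoxin, superoxide and pentose phosphate genes stay between the dotted lines on the deposited scale.

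As a check of the label, 6 of 8 squamous epithelial markers were followed, and each had more than 0.5 FPKM in both conditions. KRT5 was highest, at 398 FPKM in normoxia and 442 in hypoxia. The lowest were KRT6A (5.10 and 3.26) and ITGB4 (2.06 and 3.79), past 1.5-fold in opposite directions. KRT14 and PKP1 were not analysed here. Of 10 markers of leukocytes, endothelium and fibroblasts, CDH5 had 4.78 and 2.83 FPKM, and the other 9 were not analysed here. CDH5 thus passed the same limit, which by itself does not separate cell types. The part of CDH5-expressing cells in the results was not tested.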

How the data were processed

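TruSeq stranded poly(A) libraries of 8 SQ20B cultures were sequenced. Per the submitters' processing notes and the study's methods, reads were aligned with STAR 2.3.0.1 to RefSeq hg19 and quantified with the Cufflinks suite 2.1.1. The authors deposited 1 FPKM value per transcript and condition, over 4 libraries each. Their own fold changes, test statistics, p-values and q-values stand in the same table and were not used. Whether counting used strand is not given in the sources used here.

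Groups came from the source labels, since the treatment text is the same for all samples. RefSeq identifiers were paired with symbols through the RefSeq gene table of GRCh38.p14, which matched 24289 of 24812 transcripts (97.9%), and no coordinates were taken from it. Coordinates are the table's hg19 loci with 1 added to the start, and promoter positions are GRCh38.p14. FPKM was summed per gene, 0.1 was added, and genes or transcripts whose mean over the conditions lay under 0.5 FPKM were left out. A planned limma test needs values of single libraries and was not run, so called means past 1.5-fold. The depth of single libraries was not analysed here, and no interval is given. The calculation was tested on simulated data.

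The 9 genes and the lists were chosen with earlier results of these data known. Named list genes are up to 4 of the largest changes past 1.5-fold in each direction and the gene of each list with the highest mean FPKM. Alternatives were other pseudocounts, filters, scalings, folds and the main transcript alone. Python 3.11.15, numpy 2.4.6, pandas 2.3.3 and matplotlib 3.10.9 were used.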

Additional observations from a re-analysis of the deposited data

How the results depend on the processing

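The median log2 change of the 9 genes was -0.11 with equal FPKM sums and -0.19 with quantile normalization, and that of their transcripts -0.20 and -0.29. The median of the other pathway genes was 0.079 with equal sums and 0.052 with quantile normalization, where that of all genes was 0.15 and 0.015. With 1 FPKM added, 0 of the 9 genes were at least 1.5-fold higher and 3 of the other pathway genes were. With equal sums 12 of the other pathway genes were higher, where 18.6% of all genes were. A 2-fold limit left 0 of the 9 genes higher and 1 lower (GCLM), and 2 and 7 of the other genes. A limit of 0.32 on the log2 scale gave 6 lower among the 9 genes, and 12 higher and 23 lower among the other genes. At this limit the share of the other genes that was lower was about that of all genes. At 2-fold their share that was lower was above that of all genes. Of the 9 genes, a larger share than of all genes was lower at both limits, though at 2-fold this rests on 1 gene, GCLM. With 1 FPKM added and at both limits, the other genes had a smaller share higher than all genes had. None of these shares was tested. Equal sums, median centring and quantile normalization each took NQO1 inside 1.5-fold (-0.40, -0.55 and -0.36) and left GCLM and SRXN1 past it. No gene past 1.5-fold changed its direction under any alternative, but this was largely fixed by the settings. Pseudocounts and filters cannot reverse a sign. Equal sums and median centring shifted the median of all genes by 0.22 and 0.07, less than the limit. SESN1, just inside the limit at 0.57, was at -0.27 with its main transcript alone. The sizes of single genes moved by more than 0.1 on the log2 scale in 17 of 72 recalculations for the 9 genes. Some of the 72 could not move, since the filters leave these values as they are and median centring shifts each by 0.07. With equal sums each of the 9 genes moved. No paired analysis was possible because the columns hold 1 value per condition, and for the same reason no library could be left out. The read counts and depth behind low values such as those of HMOX1 were not analysed here.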

Other observations

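TXNRD1 and GPX4 are selenoproteins, and lists of selenocysteine incorporation, of other selenoproteins and of NADPH oxidases were added after the data were seen. With 0.1 FPKM added, all 7 genes of selenocysteine incorporation lay within 1.5-fold, with a median log2 change of -0.21. EEFSEC, the elongation factor for selenocysteine, was nearest to the limit, with 0.647 FPKM in normoxia and 1.02 in hypoxia (log2 change 0.58). Without the added 0.1 its ratio was 1.57, past 1.5-fold. SEPHS2, which makes the selenium donor, had 10.7 FPKM in normoxia and 9.30 in hypoxia. Of 11 expressed other selenoproteins, 1 was at least 1.5-fold lower and 1 higher, and the median was -0.10. SELENOI, an enzyme of phosphatidylethanolamine synthesis, had 37.9 and 24.3 FPKM, and SELENOP, the secreted selenium carrier, had 0.278 and 1.03. Among 3 expressed NADPH oxidase genes, DUOX1 had 0.579 FPKM in normoxia and 1.06 in hypoxia, and the p22phox gene CYBA had 6.21 and 5.15.

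The genes whose levels in both conditions were nearest to those of GCLM, by distance between log2(FPKM + 0.1) values over the 2 conditions, were TIMM10 (0.07), H3C3 (0.10) and RPL7L1 (0.13). TIMM10 had 136 FPKM in normoxia and 53.8 in hypoxia, H3C3 had 128 and 53.0, and RPL7L1 had 134 and 61.4. With only 2 values per gene this likeness says no more than that the levels are close.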
